A study of Mus musculus with 16 samples.

Results

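The genes described here are 10 genes of the circadian clock and its output in mouse liver, and the measurement is acetylation of histone H3 at lysine 27 (H3K27ac), a mark of active promoters and enhancers, read by chromatin immunoprecipitation and sequencing (ChIP-seq). Arntl, Clock and Npas2 form the activator arm, Per1, Per2, Per3, Nr1d1 and Nr1d2 the repressor arm, and Dbp and Nfil3 the output. A region of the authors' count table belonged to a gene when its midpoint lay inside the gene, or when it lay in no gene and the gene was the nearest protein-coding one within 50 kb. By this rule 51 of the 52645 regions belonged to the 10 genes, 42 inside a gene and 9 beside one, and each gene had at least 1. Per2 held 16 regions, Nr1d2 8, Nfil3 7, Arntl 6, Per1 5, Clock 4 and Nr1d1 2, while Npas2, Per3 and Dbp held 1 each. All 51 regions and all 10 genes passed the filter on low counts.

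The 4 groups (WT chow, WT PTU/LID, KO chow and KO PTU/LID), with 3 libraries each named by their titles in the labels, were wild-type (WT) and NCoR1 knockout (KO) animals of strain background C57BL/6J. They either stayed on chow or received PTU/LID, a diet poor in iodine that contained 0.15% propylthiouracil, a blocker of thyroid hormone synthesis, for 3 weeks beginning at 6 weeks of age. NCoR1 is a corepressor that brings histone deacetylase 3 to nuclear receptors. All animals were kept in 12 h of light and 12 h of darkness, and livers were taken on day 21. The hour of collection, the sex of the animals and the cells in which NCoR1 was deleted were not given in the sources used here, and differences between groups in the hour were not tested. The labels do not say that each library is a separate animal, so p-values reflect only how far the libraries of a group scatter, which may be technical.

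Total counts over the regions ran from 2965505 to 5831372 in the 6 WT libraries and from 3719180 to 7416187 in the 6 KO libraries. The mitochondrial share of the counts split the libraries in a way the groups do not explain. It lay above 2% in 7 libraries, among them all 3 of KO chow, and below 2% in the other 5. H3K27ac at Ncor1 itself was 49.5 ± 8.48 CPM (read counts scaled to the library total, mean ± SD, n = 3) in WT chow and 48.7 ± 8.52 CPM in KO chow, and 49.5 ± 6.45 and 48.3 ± 5.49 CPM on PTU/LID, so this mark did not check the genotype labels. All 10 hepatocyte markers looked up carried the mark, at 25.2 to 34.6 CPM per kb of region. The 4 Kupffer cell markers with a tested region, of 9 listed, summed to 46.1 to 63.7 CPM in WT chow and to 31.4 to 44.1 CPM in the other 9 libraries. Clec4f, Adgre1, Vsig4, Marco and Cd5l were the 5 without one. The summed CPM of 9 tested endothelial markers was 822 to 871 in WT chow and 627 to 811 elsewhere. The 2 lymphocyte markers tested, of 6 listed, summed to less on PTU/LID than on chow without overlap in both genotypes, 45.7 to 61.2 against 89.1 to 91.6 CPM in WT and 66.5 to 67.4 against 95 to 129 CPM in KO. The 2 cholangiocyte markers tested, of 6, summed to 45.5 to 63.6 CPM in WT PTU/LID and 32.4 to 44.4 CPM in WT chow. The 3 stellate cell markers tested, of 8, summed to 15.6 to 23.4 CPM in KO chow and 28 to 37.6 CPM in WT chow. WT chow enters both the diet comparison in WT and the genotype comparison on chow, and the part of these markers in the results below was not tested. In whole liver, fewer cells of a type and a weaker mark per cell cannot be told apart.

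In the clock, the proteins of Arntl (BMAL1) and Clock, or Npas2 in its place, pair and bind E-boxes in the promoters of the Per, Nr1d and Dbp genes. The PER proteins feed back on that pair, and the NR1D proteins (REV-ERBs) repress Arntl, Clock, Npas2 and Nfil3 by competing with the ROR receptors at RORE elements, for which they recruit NCoR1 and histone deacetylase 3. DBP activates and NFIL3 represses through D-boxes. Activator and repressor genes peak at opposite times of day in liver.

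Promoter windows from RefSeq, 250 bases before to 50 after an annotated start on GRCm38.p6, the assembly of mm10, were found for 9 of the 10 genes; there was none for Per2. They were searched on both strands for 4 clock motifs: the E-box CACGTG, the E'-box CACGTT, the D-box TTATGTAA or TTACGTAA, and the RORE by its name. The 4 windows with a match are printed with the matched letters in capitals. The window of Nfil3 is printed because that gene alone passed the test between genotypes on both diets. All are written 5′ to 3′ on the strand of the gene.
Per1, chr11:69098699-69098998, plus strand, E-box starting at -166: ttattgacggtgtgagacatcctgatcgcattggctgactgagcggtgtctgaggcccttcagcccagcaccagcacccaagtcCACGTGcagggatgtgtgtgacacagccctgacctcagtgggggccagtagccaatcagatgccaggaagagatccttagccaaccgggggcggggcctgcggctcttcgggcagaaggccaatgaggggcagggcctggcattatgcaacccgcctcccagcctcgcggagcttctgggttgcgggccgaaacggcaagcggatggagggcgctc
Nr1d1, chr11:98775328-98775627, minus strand, E'-box starting at -28: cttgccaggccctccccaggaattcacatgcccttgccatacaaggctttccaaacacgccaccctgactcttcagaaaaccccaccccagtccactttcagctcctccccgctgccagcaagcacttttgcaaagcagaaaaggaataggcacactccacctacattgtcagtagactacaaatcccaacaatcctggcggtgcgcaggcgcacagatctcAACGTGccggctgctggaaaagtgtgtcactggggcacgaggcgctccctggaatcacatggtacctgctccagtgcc
Per3, chr4:151044616-151044915, minus strand, D-boxes starting at -205 and -158: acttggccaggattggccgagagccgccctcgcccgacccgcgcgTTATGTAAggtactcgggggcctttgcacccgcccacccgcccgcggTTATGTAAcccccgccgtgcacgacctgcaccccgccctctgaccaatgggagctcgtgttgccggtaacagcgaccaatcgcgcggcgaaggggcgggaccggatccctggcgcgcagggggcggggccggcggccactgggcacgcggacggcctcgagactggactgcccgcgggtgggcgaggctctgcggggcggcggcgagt
Arntl, chr7:113207261-113207560, plus strand, RORE starting at 26: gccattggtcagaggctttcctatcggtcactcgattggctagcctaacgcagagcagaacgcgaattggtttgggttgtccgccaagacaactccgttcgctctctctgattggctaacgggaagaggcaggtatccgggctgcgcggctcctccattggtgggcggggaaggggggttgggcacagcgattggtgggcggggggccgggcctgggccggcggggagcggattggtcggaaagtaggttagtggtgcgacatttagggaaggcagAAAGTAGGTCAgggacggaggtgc
Nfil3, chr13:52980990-52981289, minus strand, no match: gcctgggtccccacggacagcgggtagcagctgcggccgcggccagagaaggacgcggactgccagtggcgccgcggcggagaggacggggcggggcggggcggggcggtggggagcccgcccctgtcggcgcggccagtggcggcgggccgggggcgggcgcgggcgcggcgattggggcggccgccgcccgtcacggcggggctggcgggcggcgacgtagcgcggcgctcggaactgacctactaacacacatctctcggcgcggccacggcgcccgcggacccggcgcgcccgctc
Of the 32851 mouse windows of this length, 7.15% held the E-box, 4.68% the E'-box, 1.06% a D-box and 0.384% the RORE. The Nfil3 window was 81.7% G and C. The printed windows of Per1 and Nr1d1 lay wholly inside an acetylated region, that of Nfil3 was covered over 52 of its 300 bases, that of Per3 over 25, and that of Arntl over none, since the nearest Arntl region ended at 113207110. A match describes letters only.

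Per kb of its regions, Nr1d1 carried the most acetylation of the 10 genes (52 ± 9.01 CPM per kb, SD over 12 libraries), followed by Dbp at 51.3 ± 18.2, Per1 at 42.3 ± 13.1, Per2 at 33.9 ± 6.28 and Nr1d2 at 31.8 ± 3.62. Per3 (25.8 ± 9.46), Nfil3 (23.9 ± 7.39), Clock (23.4 ± 4.09), Arntl (18.8 ± 3.28) and Npas2 (16.9 ± 11.4) came after them. The ranges of every pair of neighbours in this order overlapped over the libraries. The 3 activators thus stood at the bottom, with values between 5.93 and 45.1 CPM per kb, both ends of which were Npas2.

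**Figure D1:**
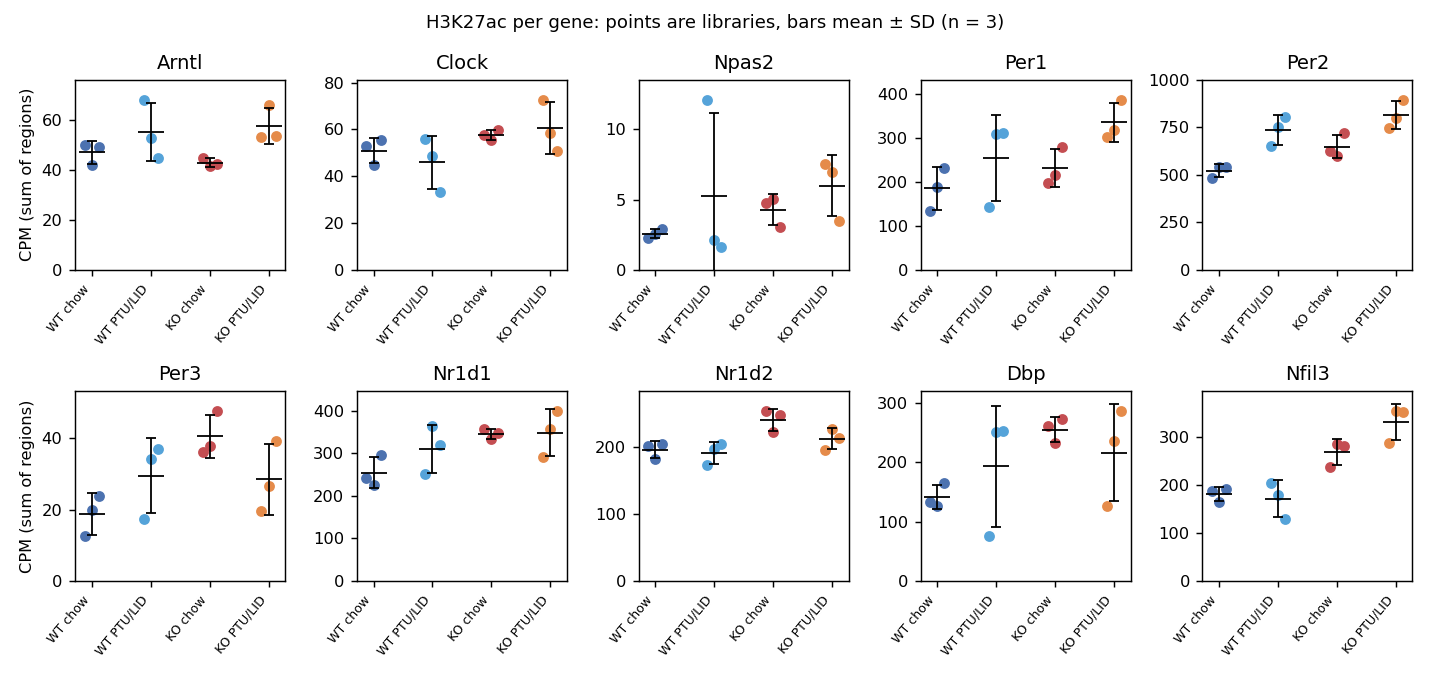
H3K27ac of each gene in each group, in CPM summed over the regions of the gene, on a linear axis that starts at 0. Points are the 3 libraries of a group, horizontal bars the mean and whiskers the SD (the lower whisker of Npas2 in WT PTU/LID runs off the axis). Per2 is higher on PTU/LID than on chow in both genotypes without overlap, and Nfil3 is higher in KO than in WT on both diets without overlap.

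Of the activators only Arntl passed a test at gene level, for the diet averaged over the genotypes. Arntl, which encodes the indispensable partner of the pair (gene at chr7:113178471-113314126), measured 50.2, 41.9 and 49.4 CPM in WT chow, 68.1, 52.9 and 44.9 CPM in WT PTU/LID, 44.9, 41.6 and 42.5 CPM in KO chow, and 53.2, 66.2 and 53.7 CPM in KO PTU/LID. The diets overlapped in WT and did not in KO. The differences on PTU/LID were 0.22 ± 0.15 on the log2 scale (± SE) in WT (edgeR's quasi-likelihood test with Benjamini-Hochberg adjustment over all genes, used throughout, adjusted p = 0.408) and 0.43 ± 0.14 in KO (adjusted p = 0.0724). Averaged over the genotypes, Arntl rose by 0.32 ± 0.10 on PTU/LID (adjusted p = 0.0348). This call failed when any of the libraries Chow_WT_27ac_99, Ptulid_WT_27ac_135, Ptulid_WT_27ac_155, Chow_NCoRKO_27ac_122, Chow_NCoRKO_27ac_146, Chow_NCoRKO_27ac_190 or Ptulid_NCoRKO_27ac_232 was left out (0.24 to 0.34, adjusted p = 0.0524 to 0.123). Between the genotypes Arntl differed by -0.14 ± 0.15 on chow and 0.08 ± 0.14 on PTU/LID (adjusted p = 0.661 and 0.827). Its most acetylated region lay 0.7 kb before the nearest annotated start and passed in no comparison.

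Clock, whose protein is the partner of BMAL1 (chr5:76209868-76305603), measured 52.7, 44.7 and 55.3 CPM in WT chow, 55.7, 48.6 and 33.2 CPM in WT PTU/LID, 57.7, 55.3 and 59.8 CPM in KO chow, and 72.5, 58.3 and 50.6 CPM in KO PTU/LID. The PTU/LID libraries were more scattered than the chow libraries in both genotypes. Its log2 differences ran from -0.17 ± 0.17 for the diet in WT to 0.40 ± 0.16 for KO against WT on PTU/LID (adjusted p = 0.583 and 0.164). The latter passed without library Ptulid_WT_27ac_135 (0.55, adjusted p = 0.0419).

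Npas2, the stand-in for Clock, had a single region of 268 bases, 0.6 kb outside the gene (chr1:39193702-39363240), with 7 to 50 reads a library. It measured 2.25, 2.53 and 2.9 CPM in WT chow, 12.1, 2.12 and 1.59 CPM in WT PTU/LID, 4.74, 5.06 and 3.03 CPM in KO chow, and 7.56, 6.95 and 3.48 CPM in KO PTU/LID. A single library, Ptulid_WT_27ac_135, held the highest value of all 12. The diet difference in WT was 0.86 ± 0.65 with that library and -0.50 without it (adjusted p = 0.472 and 0.552). KO against WT on PTU/LID was 0.30 ± 0.56, and 1.65 without library Ptulid_WT_27ac_135 (adjusted p = 0.831 and 0.0181).

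Per2 was the repressor with a diet response. The PER2 protein is the feedback inhibitor of the clock, and the gene (chr1:91415977-91459351) carried the largest acetylation total of the 10. It measured 480, 542 and 538 CPM in WT chow, 652, 749 and 805 CPM in WT PTU/LID, 624, 601 and 717 CPM in KO chow, and 746, 799 and 893 CPM in KO PTU/LID. In both genotypes every PTU/LID library stood above every chow library. In WT the means were 520 ± 34.5 and 735 ± 77.1 CPM, a rise of 0.50 ± 0.11 on the log2 scale or 1.41-fold (adjusted p = 0.00596). This was the only one of the 10 genes that passed for the diet in WT, where 7.7% of all 11584 genes tested did. An unadjusted p under 0.05 was found for 2 of the 10 and for 23.5% of all genes. In KO the difference was 0.33 ± 0.11 (adjusted p = 0.0634), and none of the 10 genes passed, against 7.47% of all genes. There 3 had an unadjusted p under 0.05, against 20.4% of all genes, and DESeq2 called 1, against 8.34%. The interaction of diet and genotype for Per2 was -0.17 ± 0.15 (adjusted p = 0.739), so a difference between the diet responses of the genotypes was not shown. Averaged over the genotypes, Per2 rose by 0.41 ± 0.08 on PTU/LID (adjusted p = 0.000492), and it and Arntl were the 2 genes of 10 that passed, against 15.9% of all genes.

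The diet call for Per2 in WT passed with each of the 12 libraries left out in turn (adjusted p up to 0.0453). Within the libraries above 2% mitochondrial counts it was 0.36, with library Ptulid_WT_27ac_135 as the sole WT library on PTU/LID. Within those below 2% it was 0.52, with library Chow_WT_27ac_106 as the sole WT library on chow. With 1 library in a group in each set, these 2 values are given without a test. On chow Per2 was higher in every KO library than in every WT library, with a difference of 0.32 ± 0.11 that did not pass (adjusted p = 0.0898), though it passed without library Ptulid_WT_27ac_135 (0.32, adjusted p = 0.0481). On PTU/LID the genotypes overlapped, at 0.14 ± 0.11 (adjusted p = 0.504).

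The strongest change at the Per2 locus sat outside the gene. The region at chr1:91463610-91464377, 4.6 kb beyond the gene's upper end, measured 7.92, 9.94 and 7.6 CPM in WT chow and 21.2, 25.2 and 23.6 CPM in WT PTU/LID. In KO it measured 8.89, 12.5 and 9.63 CPM on chow and 23.5, 18.6 and 22.6 CPM on PTU/LID. The diets were far apart in both genotypes, and here library Ptulid_WT_27ac_135, at 21.2 CPM, stood with the other 2 of its group. It rose by 1.47 ± 0.23 in WT and by 1.06 ± 0.21 in KO on the log2 scale (adjusted p = 4.77e-05 and 0.000803), and it passed in both under all 16 alternatives run. KO and WT differed there by 0.29 ± 0.24 on chow and -0.12 ± 0.20 on PTU/LID (adjusted p = 0.56 and 0.82).

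The next region outward, chr1:91464956-91465510, measured 4.35, 5.58 and 7.79 CPM in KO chow and 13.8, 9.8 and 13.3 CPM in KO PTU/LID. The rise was 1.03 ± 0.26 in KO (adjusted p = 0.0115), lost without library Chow_NCoRKO_27ac_122, Chow_NCoRKO_27ac_146 or Ptulid_NCoRKO_27ac_239 (0.85 to 0.99, adjusted p = 0.0503 to 0.101), and in WT it was 0.83 ± 0.27 (adjusted p = 0.0722). The region nearest the gene of these 3 gave 1.11 ± 0.35 and 0.88 ± 0.32 (adjusted p = 0.0679 and 0.104). All 3 intergenic regions therefore had higher means on PTU/LID in both genotypes. The region at chr1:91454599-91459507, which spans the gene's upper end, measured 110, 121.8 and 138 CPM in WT chow, 154, 202 and 245 CPM in WT PTU/LID, and 189, 190 and 224 CPM in KO chow. Both latter groups lay above WT chow without overlap. It rose by 0.70 ± 0.17 for the diet in WT and by 0.70 ± 0.17 for KO against WT on chow (adjusted p = 0.0147 and 0.0196), 2 comparisons that share the WT chow libraries. The former call was lost without library Chow_WT_27ac_96, Chow_WT_27ac_99, Ptulid_WT_27ac_155 or Ptulid_WT_27ac_280 (0.53 to 0.70, adjusted p = 0.0527 to 0.162) and the other without Chow_WT_27ac_96, Chow_WT_27ac_99, Chow_NCoRKO_27ac_122 or Chow_NCoRKO_27ac_190 (0.62 to 0.75, adjusted p = 0.0508 to 0.133). The largest region of the gene, chr1:91439999-91446123, gave 0.53 ± 0.16 for the diet in WT (adjusted p = 0.0542). In all, 2 of the 51 regions passed for the diet in WT, against 3.71% of all 52592 regions tested, and 3 passed in KO, against 6.21%.

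**Figure D2:**
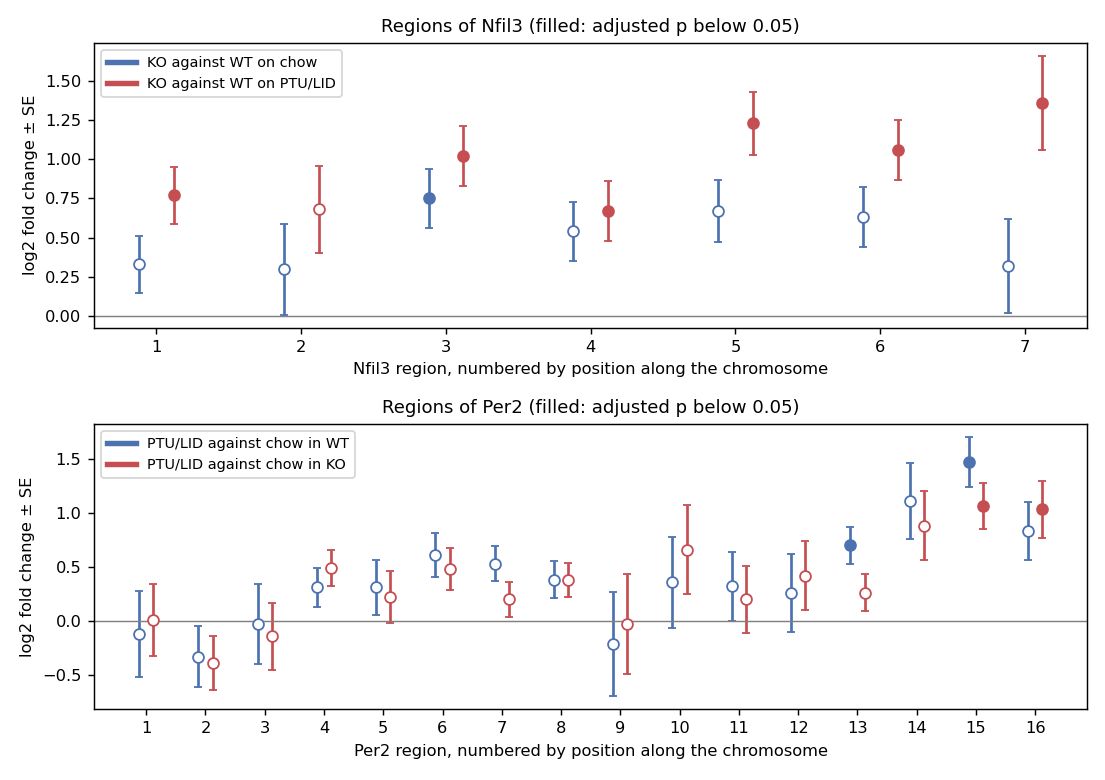
Log2 fold change ± SE of each region of Nfil3 (upper panel, KO against WT) and of Per2 (lower panel, PTU/LID against chow), numbered from the lower to the higher coordinate, with filled points where the adjusted p was below 0.05. On PTU/LID 6 of the 7 Nfil3 regions are filled, and at Per2 region 15, outside the gene, is filled in both genotypes.

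Per1, a fellow feedback inhibitor (chr11:69095108-69109965), measured 185 ± 49.1 CPM in WT chow (mean ± SD, n = 3, with 134 and 189 CPM in the 2 lower libraries), 142, 309 and 312 CPM in WT PTU/LID, 198, 216 and 279 CPM in KO chow, and 301, 318 and 386 CPM in KO PTU/LID. In WT 2 PTU/LID libraries stood above all chow libraries and library Ptulid_WT_27ac_135 stood among them, while in KO the diets did not overlap. The diet differences were 0.46 ± 0.30 in WT and 0.54 ± 0.30 in KO (adjusted p = 0.417 and 0.371). Without library Ptulid_WT_27ac_135 the difference in WT was 0.74 and passed (adjusted p = 0.0207). The E-box window printed for Per1 lay in its region with the highest total CPM (chr11:69097190-69099925), which passed in no comparison. Per kb that region carried 36 CPM, less than chr11:69095167-69096632 at 53 and chr11:69093701-69094870 at 50.6.

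Per3, the PER gene held to be the least needed for rhythms (chr4:150997018-151044707), had 1 region near its start. It measured 12.5, 20 and 23.9 CPM in WT chow, 17.5, 34.2 and 37 CPM in WT PTU/LID, 36.1, 38 and 47.6 CPM in KO chow, and 19.6, 26.6 and 39.3 CPM in KO PTU/LID. KO chow was above WT chow without overlap, and the PTU/LID groups overlapped each other. At gene level KO against WT on chow was 1.07 ± 0.30 (adjusted p = 0.0571), and it passed without library Ptulid_WT_27ac_135, Ptulid_NCoRKO_27ac_211 or Ptulid_NCoRKO_27ac_239 (1.06 to 1.07, adjusted p = 0.00813 to 0.0331). Tested as a region (chr4:151043501-151044640), it rose by 1.08 ± 0.28 (adjusted p = 0.0476), a call lost without library Chow_WT_27ac_96, Chow_WT_27ac_99, Ptulid_WT_27ac_155, Chow_NCoRKO_27ac_122, Chow_NCoRKO_27ac_146, Chow_NCoRKO_27ac_190 or Ptulid_NCoRKO_27ac_232 (0.87 to 1.16, adjusted p = 0.0542 to 0.165). On PTU/LID the genotypes differed by -0.05 ± 0.29 (adjusted p = 0.946). Its interaction of -1.13 ± 0.41 had the lowest unadjusted p of the 10 genes, 0.0162, and an adjusted p of 0.356. With the mitochondrial set (above or below 2%) as a term in the fit it was -1.46 (adjusted p = 0.00277), the 1 setting of 23 in which it passed. All 3 KO chow libraries were above 2%, so the size of that term came from the other groups. With the term the share of all genes called for the interaction was 1.93%, against 0.406% without it.

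Nr1d1 encodes REV-ERBα (chr11:98767932-98775377). It measured 242, 226 and 296 CPM in WT chow, 251, 364 and 319 CPM in WT PTU/LID, 358, 334 and 348 CPM in KO chow, and 291, 358 and 399 CPM in KO PTU/LID. Every KO chow library was above every WT chow library, and the PTU/LID groups overlapped. KO against WT was 0.44 ± 0.13 on chow (adjusted p = 0.0582) and 0.17 ± 0.13 on PTU/LID (adjusted p = 0.533). The chow difference passed without library Chow_WT_27ac_106, Ptulid_WT_27ac_135, Ptulid_WT_27ac_155 or Ptulid_NCoRKO_27ac_211 (0.43 to 0.57, adjusted p = 0.0189 to 0.048). It was 0.57 within the libraries above 2% mitochondrial counts, a value given without a test. That fit was added after seeing the data and has 1 library in each PTU/LID group. It leaves out library Chow_WT_27ac_106, the highest of WT chow at Nr1d1. Averaged over the diets Nr1d1 rose in KO by 0.31 ± 0.09 (adjusted p = 0.0355). Of the 12 fits that left out 1 library, 3 kept that call, those without Chow_WT_27ac_106, Ptulid_WT_27ac_155 or Ptulid_NCoRKO_27ac_211, and the others gave 0.24 to 0.32 with an adjusted p up to 0.114. The diet difference in WT was 0.29 ± 0.13 (adjusted p = 0.192), and 0.42 without library Ptulid_WT_27ac_135 (adjusted p = 0.0269).

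Nr1d2, which encodes REV-ERBβ (chr14:18204056-18239106), varied least of the 10 between libraries of a group. It measured 202, 182 and 204 CPM in WT chow, 173, 197 and 204 CPM in WT PTU/LID, 253, 222 and 247 CPM in KO chow, and 196, 227 and 213 CPM in KO PTU/LID. KO chow stood above the WT libraries on either diet. The chow difference between genotypes was 0.30 ± 0.10 (adjusted p = 0.105). A region within the gene, chr14:18237387-18238474, 1.2 kb past the annotated start, measured 31, 26.8 and 33.4 CPM in WT chow, 55.7, 48.2 and 60.8 CPM in KO chow, and 29.1, 43.1 and 37.8 CPM in KO PTU/LID. The KO chow libraries stood above both other groups. It rose by 0.85 ± 0.19 in KO against WT on chow (adjusted p = 0.00886), lost without library Chow_WT_27ac_99 or Chow_NCoRKO_27ac_190 (0.77 in each, adjusted p = 0.0741 and 0.071). It fell by 0.57 on the log2 scale on PTU/LID in KO, with an SE of 0.18 (adjusted p = 0.0495), the single fall among all calls for the 51 regions. That call held in 3 of the 12 fits that left out 1 library, those without Ptulid_WT_27ac_135, Ptulid_WT_27ac_280 or Ptulid_NCoRKO_27ac_232, and the others gave adjusted p = 0.0507 to 0.209. With all 12 libraries it was also lost under DESeq2 (adjusted p = 0.0736) and in edgeR with another scaling, RLE size factors (adjusted p = 0.0556).

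Nfil3 was the gene with a genotype difference on both diets. NFIL3 (E4BP4) is the D-box repressor opposed to DBP, and its gene (chr13:52967209-52982878) is a known target of the NR1D repressors. It measured 188, 164 and 191 CPM in WT chow against 237, 286 and 282 CPM in KO chow, and 205, 180 and 129 CPM in WT PTU/LID against 289, 354 and 353 CPM in KO PTU/LID. All 6 KO libraries were above all 6 WT libraries. Nfil3 was higher in KO by 0.57 ± 0.14 on chow (means 181 ± 14.3 and 268 ± 27.1 CPM, 1.48-fold, adjusted p = 0.0199) and by 0.96 ± 0.14 on PTU/LID (171 ± 38.4 and 332 ± 37.3 CPM, 1.95-fold, adjusted p = 0.000143). It was the only one of the 10 that passed in either comparison, where 4.17% of all genes passed on chow and 6.13% on PTU/LID. Averaged over the diets it rose by 0.76 ± 0.10 (adjusted p = 1.29e-05). In this average 3 of the 10 genes passed, Nfil3, Nr1d1 and Per2, against 11.6% of all genes. Per2 there gave 0.23 ± 0.08 (adjusted p = 0.0494), which held only without library Ptulid_WT_27ac_280 or Ptulid_NCoRKO_27ac_211 among the 12 fits that left out 1 library (adjusted p up to 0.151).

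The chow call for Nfil3 was lost without library Chow_WT_27ac_96, Chow_WT_27ac_99, Chow_WT_27ac_106, Chow_NCoRKO_27ac_146 or Chow_NCoRKO_27ac_190 (0.50 to 0.61, adjusted p = 0.0533 to 0.118), and the PTU/LID call passed with each of the 12 libraries left out in turn (adjusted p up to 0.00155). On PTU/LID the difference was 0.49 within the libraries above 2% mitochondrial counts, where the groups were library Ptulid_WT_27ac_135 and library Ptulid_NCoRKO_27ac_211 alone. It was 1.21 within those below 2%. On chow it was 0.61 within the libraries above 2%. These values are given without a test. Both fits were added after seeing the data and held a group of 1 library, which adds nothing to the estimate of spread. The interaction was 0.39 ± 0.19 (adjusted p = 0.488), so the larger difference on PTU/LID was not shown to differ from that on chow. The diet itself gave -0.09 ± 0.14 in WT and 0.31 ± 0.13 in KO (adjusted p = 0.771 and 0.185). With all libraries thinned to the 2965505 counts of the shallowest, Nfil3 remained the 1 gene of 10 called between genotypes on chow and on PTU/LID, and in the average over the diets the call for Per2 was lost (adjusted p = 0.0668), which left Nfil3 and Nr1d1.

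The difference on PTU/LID was spread over most regions of Nfil3. All 7 of them had higher means in KO, and 6 of them passed, each without overlap between the genotypes. The region at chr13:52978610-52980974, past the annotated start, measured 46.3, 31.7 and 25.9 CPM in WT and 59.6, 88.7 and 91.5 CPM in KO, a rise of 1.23 ± 0.20 (adjusted p = 0.000143). The region at chr13:52981238-52982128, which reaches into the printed window, measured 18.8, 15.1 and 18.1 CPM in WT and 34.3, 34.2 and 39.1 CPM in KO, a rise of 1.06 ± 0.19 (adjusted p = 0.000684). In this region the KO libraries nearly coincided. The outermost, chr13:52982169-52982648, measured 4.78, 5.38 and 4.31 CPM in WT and 15.9, 12.3 and 9.62 CPM in KO and had the largest rise, 1.36 ± 0.30 (adjusted p = 0.0045). The remaining 3 that passed rose by 0.77 (chr13:52971963-52974402), 1.02 (chr13:52974925-52976314) and 0.67 (chr13:52976398-52978515) on the log2 scale. The calls for the regions at 52974925, 52978610, 52981238 and 52982169 held under all 16 alternatives run. That at 52971963 was lost without library Ptulid_WT_27ac_280 (0.57, adjusted p = 0.117), and that at 52976398 without Chow_WT_27ac_99, Ptulid_WT_27ac_155, Ptulid_WT_27ac_280, Ptulid_NCoRKO_27ac_232 or Ptulid_NCoRKO_27ac_239 (0.50 to 0.71, adjusted p = 0.0514 to 0.25). These 6 were all the regions of the 10 genes that passed for the genotype on PTU/LID, 6 of 51, against 3.87% of all regions, and they belong to 1 gene. On chow 4 of the 51 passed, against 2.43% of all regions: 1 each at Per2, Per3, Nr1d2 and Nfil3. The Nfil3 region there, chr13:52974925-52976314, rose by 0.75 ± 0.19 (adjusted p = 0.0243), lost without library Chow_WT_27ac_96, Chow_WT_27ac_99, Chow_WT_27ac_106, Chow_NCoRKO_27ac_146 or Chow_NCoRKO_27ac_190 (0.67 to 0.81, adjusted p = 0.0595 to 0.134).

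Dbp, the D-box activator and a direct output of the E-box loop (chr7:45705100-45710203), had 1 region over most of the gene. It measured 133, 127 and 165 CPM in WT chow, 75.3, 252 and 253 CPM in WT PTU/LID, 261, 232.4 and 273 CPM in KO chow, and 126, 236 and 286 CPM in KO PTU/LID. On chow the genotypes did not overlap, and on PTU/LID 1 library of each genotype, Ptulid_WT_27ac_135 and Ptulid_NCoRKO_27ac_211, stood far below the other 2. KO against WT on chow was 0.84 ± 0.44 (adjusted p = 0.339), and it passed in none of the 12 fits that left out 1 library. It passed in a fit on only the chow libraries (0.84, adjusted p = 6.96e-06), where 10.9% of all genes did. With the mitochondrial set as a term it was 1.20 (adjusted p = 0.0134), where 13.6% of all genes passed. The size of that term came from the groups other than KO chow. Within the libraries above 2% mitochondrial counts the difference was 0.97. That value is given without a test, since the fit was added after seeing the data. It leaves out library Chow_WT_27ac_106, the highest of WT chow at Dbp. Libraries Ptulid_WT_27ac_135 and Ptulid_NCoRKO_27ac_211 stand alone in their groups there and add nothing to the estimate of spread. The diet difference in WT was 0.46 ± 0.45 (adjusted p = 0.601). Within the libraries above 2% it was -0.78, with library Ptulid_WT_27ac_135 alone on PTU/LID, and within those below 2% it was 0.60, with library Chow_WT_27ac_106 alone on chow. These 2 values rest on 1 library in a group and are given without a test. Nfil3 and Dbp, opposed at the D-box, both had higher means in KO chow.

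**Figure D3:**
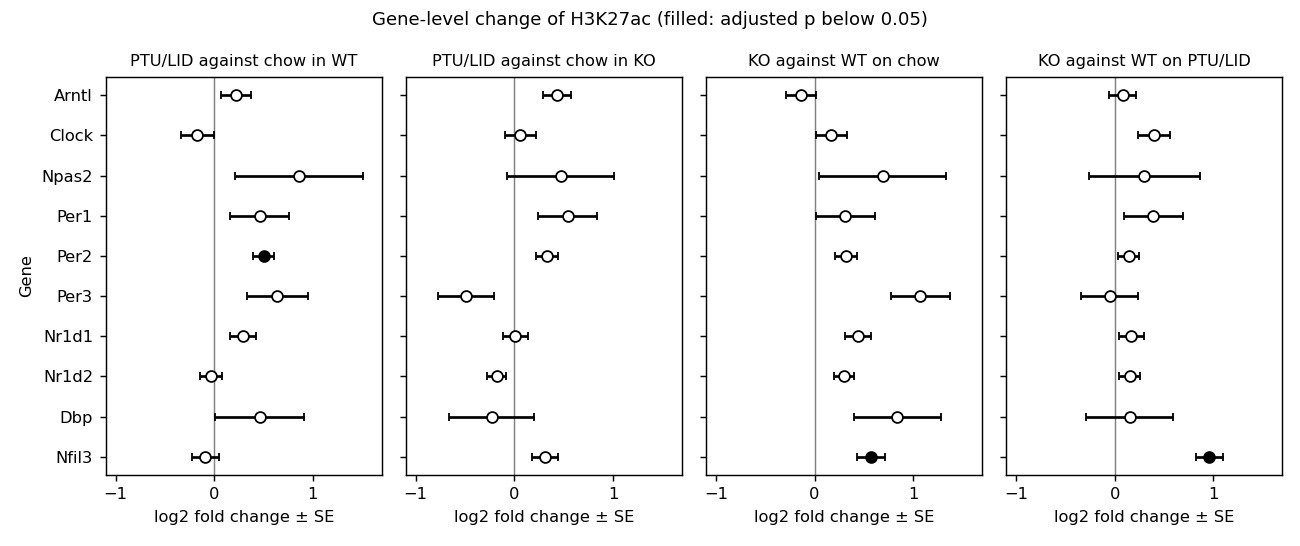
Gene-level log2 fold change ± SE of the 10 genes in the 4 comparisons between pairs of groups, with filled points where the adjusted p was below 0.05. Per2 is filled for the diet in WT and Nfil3 for the genotype on both diets, and the bars of Npas2, Dbp, Per1 and Per3 are the widest.

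In WT PTU/LID the libraries differed at the clock genes along the arms. Library Ptulid_WT_27ac_135 of WT PTU/LID was the lowest of its group at all 5 repressors and at Dbp and the highest at all 3 activators and at Nfil3. Library Ptulid_WT_27ac_280 of the same group was the lowest at all 3 activators and at Nfil3 and the highest at 4 repressors and at Dbp. Library Ptulid_NCoRKO_27ac_211 of KO PTU/LID was also the lowest of its group at all 5 repressors and at Dbp, and the highest at Clock and Npas2, but unlike Ptulid_WT_27ac_135 it was the lowest at Arntl and Nfil3. On chow the order of the libraries cut across the arms: Chow_WT_27ac_106 was the highest of WT chow at 8 of the 10 genes, 2 activators and 4 repressors among them, and Chow_NCoRKO_27ac_146 the lowest of KO chow at 6, also 2 activators and 3 repressors among them. Both Ptulid_WT_27ac_135 and Ptulid_NCoRKO_27ac_211 are the libraries of their groups with above 2% mitochondrial counts. They are also the shallowest of their groups. Ptulid_WT_27ac_135 had 3095704 counts, against 4546159 and 4729424, and Ptulid_NCoRKO_27ac_211 had 3719180, against 7416187 and 7084675. Library Ptulid_WT_27ac_135 minus the mean of the other 2 was -1.74 at Dbp on the log2 scale, a value that 0.0345% of all genes lay below, and -1.12 at Per1, -1.01 at Per3 and 2.48 at Npas2, where the middle 90% of all genes ran from -0.62 to 0.68. Library Ptulid_NCoRKO_27ac_211 minus its group's others was -1.04 at Dbp and -0.71 at Per3, where that range was -0.55 to 0.73. The SD within groups was 0.80 on the log2 scale at Npas2, 0.60 at Dbp, 0.46 at Per3 and 0.41 at Per1, against a median of 0.21 over all genes, and 0.13 at Per2 and 0.11 at Nr1d2. The part of mitochondrial share, of depth or of collection hour in this spread was not tested.

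**Figure D4:**
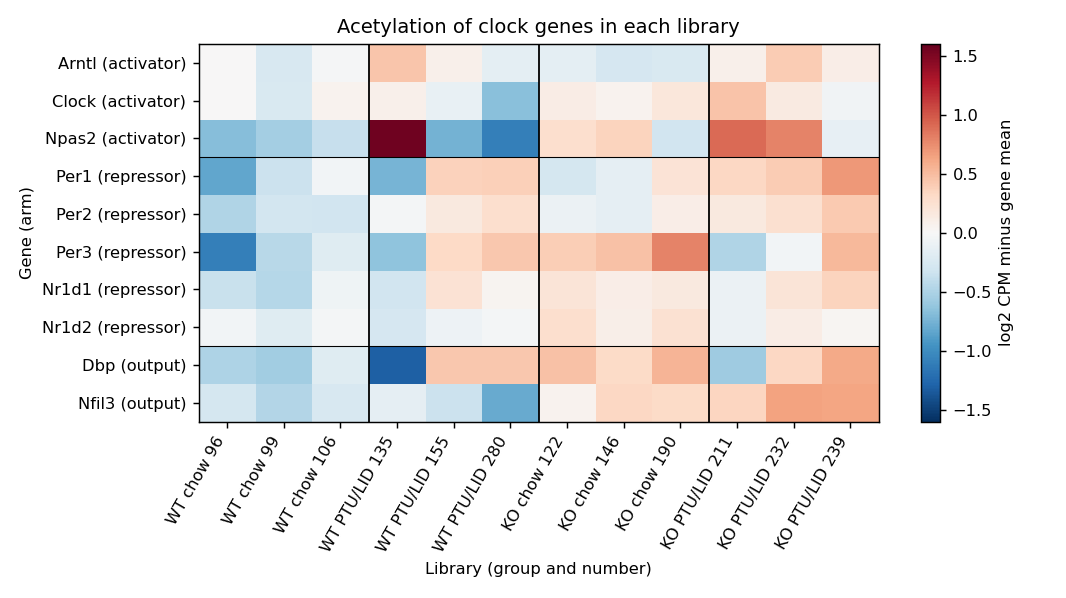
H3K27ac of each gene in each of the 12 libraries as log2 CPM minus the gene's mean over all libraries, red above and blue below the mean, with lines between groups and between arms. Library Ptulid_WT_27ac_135 is below the mean at the repressors and at Dbp (lowest of its group at all 6) and above it at the activators. Its values are close to the mean at Per2 (-0.03) and Clock (0.08). Library Ptulid_WT_27ac_280 goes the other way, but is close to the mean at Nr1d1 (0.04) and Nr1d2 (-0.03).

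Leaving out library Ptulid_WT_27ac_135 moved the count of genes called for the diet in WT from 1 to 4 (Per1, Per2, Per3 and Nr1d1, all higher on PTU/LID), while the share over all genes went from 7.7% to 13.9%. That of regions went from 2 to 10 of 51, and the share over all regions from 3.71% to 6.86%. Each of those 4 genes belongs to the repressor arm, and that library was the lowest of its group at all 5 repressors. Leaving it out therefore raises their diet differences in WT by construction, so the arm of the added calls follows from the choice of library. For KO against WT on chow, which does not use that library's values but shares its estimate of spread, the count moved from 1 to 4 (Per2, Per3, Nr1d1 and Nfil3, all higher in KO) and the share over all genes from 4.17% to 7.26%. With the mitochondrial set (above or below 2%) as a term the count was 6 and the share 13.6%. As KO chow held only libraries above 2%, the size of that term came from the other groups. In the fit as designed 5 of the 10 had an unadjusted p under 0.05 on chow and 2 on PTU/LID, against 19.8% and 19% of all genes. DESeq2 called 3 and 1 of the 10 there, against 5.84% and 7.59% of all genes.

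The arms were summarised per library as the mean over their genes of log2 CPM centred on each gene's mean, a description without a test. The activator arm was -0.23 ± 0.12 in WT chow, -0.07 ± 0.69 in WT PTU/LID, 0.00 ± 0.11 in KO chow and 0.30 ± 0.29 in KO PTU/LID (SD, n = 3). The repressor arm was -0.35 ± 0.22, 0.00 ± 0.35, 0.16 ± 0.13 and 0.19 ± 0.22 in the same order. WT chow had the lowest mean of both arms, for the activators largely through Npas2. At Arntl the mean of WT chow (47.1 CPM) was above that of KO chow (43 CPM). At Clock it (50.9 CPM) was above that of WT PTU/LID (45.9 CPM). Repressor minus activator was -0.12 ± 0.19 in WT chow, 0.08 ± 1.03 in WT PTU/LID, 0.16 ± 0.24 in KO chow and -0.11 ± 0.49 in KO PTU/LID. These group means differed by less than the spread between libraries on PTU/LID. By library the difference was -1.09, 0.47 and 0.86 in WT PTU/LID (Ptulid_WT_27ac_135, Ptulid_WT_27ac_155 and Ptulid_WT_27ac_280) and -0.52, -0.25 and 0.43 in KO PTU/LID (Ptulid_NCoRKO_27ac_211, Ptulid_NCoRKO_27ac_232 and Ptulid_NCoRKO_27ac_239), against -0.34, 0.00 and -0.02 in WT chow and 0.02, 0.02 and 0.43 in KO chow. The balance of the arms thus varied more among single PTU/LID libraries of a genotype than between group means, which average 3 libraries each. In WT PTU/LID much of the activator spread came from Npas2, a gene with few reads. Its centred log2 CPM was 1.55, -0.76 and -1.1 in the library order above. Arntl had 0.44, 0.08 and -0.16 there, and Clock 0.08, -0.12 and -0.67, in the same direction but with a smaller spread.

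**Figure D5:**
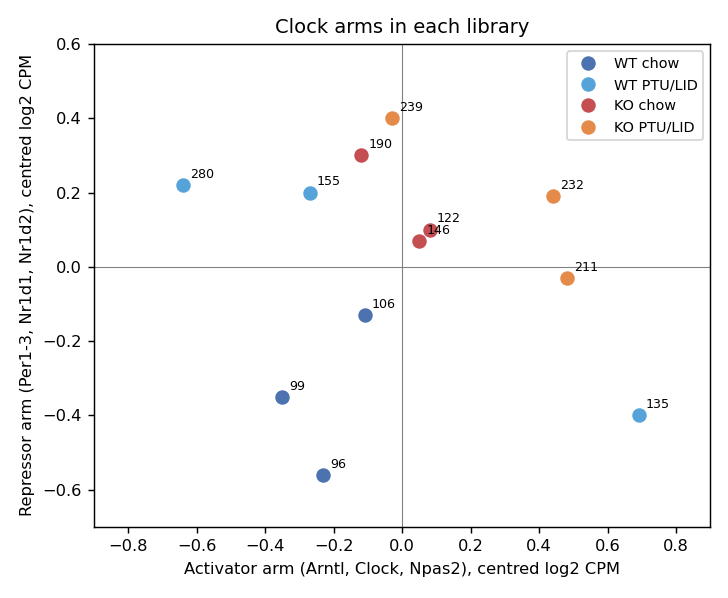
Repressor arm (vertical axis) against activator arm (horizontal axis) in each library, both as mean centred log2 CPM, coloured by group and marked with the library number. The WT chow libraries lie at the lower left, and the WT PTU/LID libraries spread from Ptulid_WT_27ac_280 at the upper left to Ptulid_WT_27ac_135 at the lower right.

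Over the 10 genes, 7 had a positive diet difference in WT with a median of 0.37 on the log2 scale, against 49.3% positive and a median of 0.00 over all genes tested. In KO 7 were positive with a median of 0.18, against 46.9% and -0.02. KO against WT was positive for 9 of 10 on chow, with a median of 0.38, against 49.9% and 0.00. On PTU/LID it was positive for 9 of 10, with a median of 0.16, against 43.9% and -0.04. The 10 genes did not vary independently of each other within groups, so these counts carry no test. The chow comparison and the diet comparison in WT share the WT chow libraries, which had the lowest of the 4 group means at Npas2, Per1, Per2, Per3, Nr1d1 and Dbp. All 5 repressors were positive for KO against WT on chow (0.30 to 1.07), and none of them passed. For the interaction none of the 10 genes passed (0.406% of all genes did, and DESeq2 called 0 of the 10 and 0.924% of all). An unadjusted p under 0.05 was found for 1 of the 10 and for 10.3% of all genes. None of the 51 regions passed either (0.23% of all regions did, and DESeq2 called 0 of the 51 and 0.359% of all). Here 6 of the 51 had an unadjusted p under 0.05, against 9.24% of all regions. A different diet response in KO was therefore not shown at any of the 10 genes. Without scaling factors between libraries, the median over all genes was -0.19 for KO against WT on chow and -0.13 on PTU/LID, and changes are given relative to a median near 0.

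Of 20 further clock genes, 17 were tested (Rorb, Arntl2 and Fbxl21 were not). None passed for the diet in KO, for the genotype on chow or for the interaction, where 7.47%, 4.17% and 0.406% of all genes did. For the genotype on PTU/LID 1 passed, against 6.13% of all genes. This was Rora, which encodes the RORα activator of RORE elements and rose by 0.40 ± 0.11 in KO against WT on PTU/LID (536 ± 88.7 to 708 ± 81.5 CPM, adjusted p = 0.0365). Bhlhe40, an E-box repressor, rose by 0.40 ± 0.10 in KO when the diets were averaged (adjusted p = 0.00736). It was the 1 gene of the 17 that passed in that average, against 11.6% of all genes. Bhlhe41, its partner, gave 1.41 ± 0.46 for the diet in WT and 1.33 ± 0.46 for the genotype on chow without passing (adjusted p = 0.103 and 0.142). The medians of the 17 were 0.15 for the diet in WT and 0.06 for the genotype on either diet.

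The thyroid hormone receptor genes lie beside the NR1D genes, Thra overlapping the end of Nr1d1 on chromosome 11 (chr11:98740776-98769006) and Thrb on chromosome 14 (chr14:17659225-18040097). Neither passed in any comparison. Thra measured 19.8 ± 2.08 CPM in WT chow and 19.6 ± 4.83 CPM in KO chow, and Thrb 557 ± 34.5 and 562 ± 16.1 CPM. No region of the 51 lay in a second gene.

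Over all 12 libraries, the genes whose log2 CPM ran most like that of Nfil3 included Nedd4l and Dlat, with a Pearson likeness of 0.98 and 0.97. For Per2 they were Uox, P2ry2 and Ccdc85c (0.96 each), for Nr1d1 Bckdha, Junb and Fah (0.96, 0.96 and 0.95) and for Arntl Lgals1, Pdzk1ip1 and Fcer1g (0.89, 0.86 and 0.86). These likenesses describe libraries that share groups, depth and scaling and carry no test.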

How the data were processed

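Raw counts per region, as deposited, cover 12 H3K27ac libraries and 52645 regions. The submitters' processing notes name MACS2 2.1.1, Bowtie2 2.2.1, bedtools 2.26.0, Picard 2.8.1 and bcl2fastq 2.17.1.14, and mm10 as the genome. Their settings, the handling of duplicate reads and the way regions were called were not given. The 4 input libraries are not analysed here. Since levels are shares of the counts in all regions, a gain or loss of the mark everywhere would not show.

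Regions were assigned to RefSeq genes of GRCm38.p6, with starts printed 1-based. Counts were summed per gene and tested with edgeR 4.0.16 (R 4.3.3): robust quasi-likelihood test, TMM factors, filterByExpr with a minimum count of 10, 1 mean per group, all 12 libraries in 1 fit. This left 11584 genes and 52592 regions, over which p-values were adjusted (Benjamini-Hochberg, threshold 0.05). The SE was taken as |log2 fold change| divided by the root of F. CPM uses TMM factors, and arms use log2 CPM with a prior count of 2. The script was tested on simulated data. Alternatives included DESeq2 1.42.0, other scaling, filters and gene windows, thinning, leaving out each library, and the mitochondrial set (above or below 2%), whose 2 within-set fits were added after seeing the data. The text gives all 10 genes, every region that passed, list members that passed, and for each gene that passed the 3 most alike, except 2 genes that are not reported here. Members and lists were chosen with earlier results of these data known. Library numbers are unique, so no pairing was used.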

Additional observations from a re-analysis of the deposited data

How the results depend on the processing

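Counts of the 10 genes called are given here in the order diet in WT, diet in KO, genotype on chow, genotype on PTU/LID, interaction, diet averaged and genotype averaged, and were 1, 0, 1, 1, 0, 2 and 3. DESeq2 gave 1 for the diet in KO, 3 for the genotype on chow and 5 for the genotype averaged (8.34%, 5.84% and 13% of all genes). Total counts without TMM gave 3, 0 and 1 for these (8.16%, 7.95% and 16.7%), and fits on only the libraries compared gave 3 for the diet in KO and 6 for the genotype on chow (8.15% and 10.9%). With the mitochondrial set as a term the counts were 1 for the diet in KO, 6 for the genotype on chow, 1 for the interaction and 6 for the genotype averaged (6.67%, 13.6%, 1.93% and 20.3%). KO chow held only libraries above 2%, so the size of that term came from the other groups. Without the mitochondrial regions the diet in KO gave 1 (7.45%), and after thinning the diet averaged gave 1 (13.4%) and the genotype averaged 2 (9.84%). Within the libraries above 2% the counts were 2, 2 and 6 for the first 3 comparisons, 4 for the diet averaged and 5 for the genotype averaged (2.11%, 6.28%, 10.3%, 6.48% and 7.49%), and within those below 2% they were 3 for the diet in WT and 2 for the genotype on PTU/LID (10.2% and 11.4%). Of these, only the genotype on chow above 2% and the genotype on PTU/LID below 2% have at least 2 libraries in each group. The others rest on 1 library in a group (WT PTU/LID and KO PTU/LID above 2%, WT chow below), assumed to vary like the rest, and say nothing of stability. Leaving out 1 library gave 1 to 4 for the diet in WT, 0 to 2 for the diet in KO, 0 to 4 for the genotype on chow, 1 to 3 for the genotype on PTU/LID, 1 to 2 for the diet averaged and 1 to 5 for the genotype averaged, while the shares of all genes ran over 2.95% to 13.9%, 3.98% to 9.88%, 1.15% to 7.26%, 2.82% to 9.1%, 11.5% to 21.6% and 7.46% to 18.2%. Of the 51 regions, leaving out 1 library gave 1 to 10, 1 to 7, 0 to 9 and 0 to 1 called for the diet in WT, the diet in KO, the genotype on chow and the interaction, and the mitochondrial term gave 4, 5, 13 and 1 (4.47%, 4.97%, 7.6% and 0.989% of all regions).

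Signs turned at Npas2, Dbp and Per1. Leaving out 1 library, Npas2 gave -0.50 to 1.34 for the diet in WT, -0.01 to 0.90 for the diet averaged and -0.18 to 1.65 for the genotype on PTU/LID. It gave -0.68 for the genotype on PTU/LID within libraries above 2% and -0.66 for the diet in WT within those below. Leaving out 1 library, Dbp gave -0.22 to 0.44 for the genotype on PTU/LID, -0.49 to 0.04 for the diet in KO and -0.02 to 0.30 for the diet averaged. With the mitochondrial term Dbp gave -0.01 (diet in WT) and -0.50 (diet averaged), and within libraries above 2% -0.78 and -0.90. Per1 gave -0.18 (diet in WT) within libraries above 2%. The cause was not tested. No arm value moved beyond its spread with another prior count. Leaving out Npas2 raised the activator mean of WT chow by more than its SD. The 7 to 50 reads of the Npas2 region and the 39 to 314 of Per3 limit the precision there. No paired analysis was possible because no library number is shared between groups.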
